A study of Callithrix jacchus with 4 samples.

Results

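Axon guidance ligands and receptors were examined in the brain of newborn common marmosets (Callithrix jacchus) with and without a mutation in FMR1. The members are the genes whose symbols place them among the class 3 to class 7 semaphorins, plexins, neuropilins, ephrins, Eph receptors, SLITs, ROBOs, netrins, netrin-G proteins, UNC5 receptors and DCC. They were picked by a rule on the gene symbol that uses no measured value, and 70 of the 35205 rows in the count table qualified, 37 ligands and 33 receptors. At postnatal day 5, RNA-seq was done on 2 libraries from wild-type and 2 from FMR1 mutant marmosets. The mutants were made with CRISPR/Cas9, and the labels name no treatment. The sources used here do not give the allele, the sex of the animals or whether each library came from its own animal. The study names cerebral cortex, striatum and hippocampus as parts of its forebrain samples, while the label of each library says only brain.

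Growing axons find their targets by reading attractive and repulsive proteins with receptors on the growth cone. Semaphorins signal through plexins, with neuropilins as co-receptors for most secreted class 3 members. Ephrins, which stay attached to the cell surface, bind Eph receptor tyrosine kinases and can signal in both directions. SLITs repel axons through ROBO receptors, and netrins attract through DCC and repel through UNC5 receptors. In the newborn forebrain these proteins also act in neuronal migration, synapse formation and the maturation of oligodendrocytes, the cells that make myelin. The FMR1 product FMRP binds RNA and regulates translation in neurons, and its loss causes fragile X syndrome.

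The libraries held between 12331639 and 13455702 counts. FMR1 RNA had 1144 and 966 counts in the wild-type libraries, against 1062 and 1603 in the FMR1 mutant ones (values are given in the order of the replicate numbers throughout). The groups overlapped, so these counts do not check the genotype labels. The striatal receptor DRD1 was counted in all 4 libraries (487 to 639 counts). Wild-type replicate 1 stood apart in thalamic markers: TCF7L2 was counted 1272 times there, against 118 to 139 times in the other libraries. FMR1 mutant replicate 1 stood apart in the choroid plexus marker TTR (1244 counts, against 8 to 89). Over all 16956 genes tested, 378 changed, 112 higher and 266 lower in the mutant libraries. That count was 163 without FMR1 mutant replicate 1 and 220 without FMR1 mutant replicate 2.

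For most axon guidance genes no difference between mutant and wild-type libraries passed the test. Of the 67 members with enough counts to be tested, 2 fell in the mutant libraries, the ligand SEMA5A and the receptor EPHA10, and 0 rose (edgeR quasi-likelihood test, Benjamini-Hochberg adjusted over all genes tested). By DESeq2 the same 2 fell and 0 rose. By limma-voom these 2 and the netrin-G protein NTNG1 fell and 0 rose. The 2 genes are 2.99% of the members tested, near the 2.23% of all genes called in either direction (1.57% lower and 0.661% higher). At an unadjusted p under 0.05, 10 members were lower (14.9%), against 7.75% of all genes tested, and 1 was higher (1.49%), against 5.64% (13.4% in either direction). Groups did not overlap in 20 members with lower values (29.9%) and in 11 with higher values (16.4%), against 21.8% and 21.4% of all genes tested (43.1% in either direction). The median log2 fold change, mutant over wild-type, was -0.04 over the members and -0.004 over all genes tested.

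The counts also set limits on what could have been missed, with intervals whose spread was moderated over all genes. Among the 65 members that did not pass, the 95% interval of the fold change lay within 2-fold either way for 59 and within 1.5-fold for 45. The wider intervals were those of SEMA3B, SEMA3D, SLIT3, EFNA4, EPHA2 and NTNG1. In 36 of the 67 members the gap between the wild-type libraries, on the log2 scale, was larger than the difference between groups, a share (53.7%) near that of all genes tested (52.9%). The gap between the mutant libraries was larger than the difference between groups in 30 members (44.8%, against 52.5% of all genes tested).

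**Figure D1:**
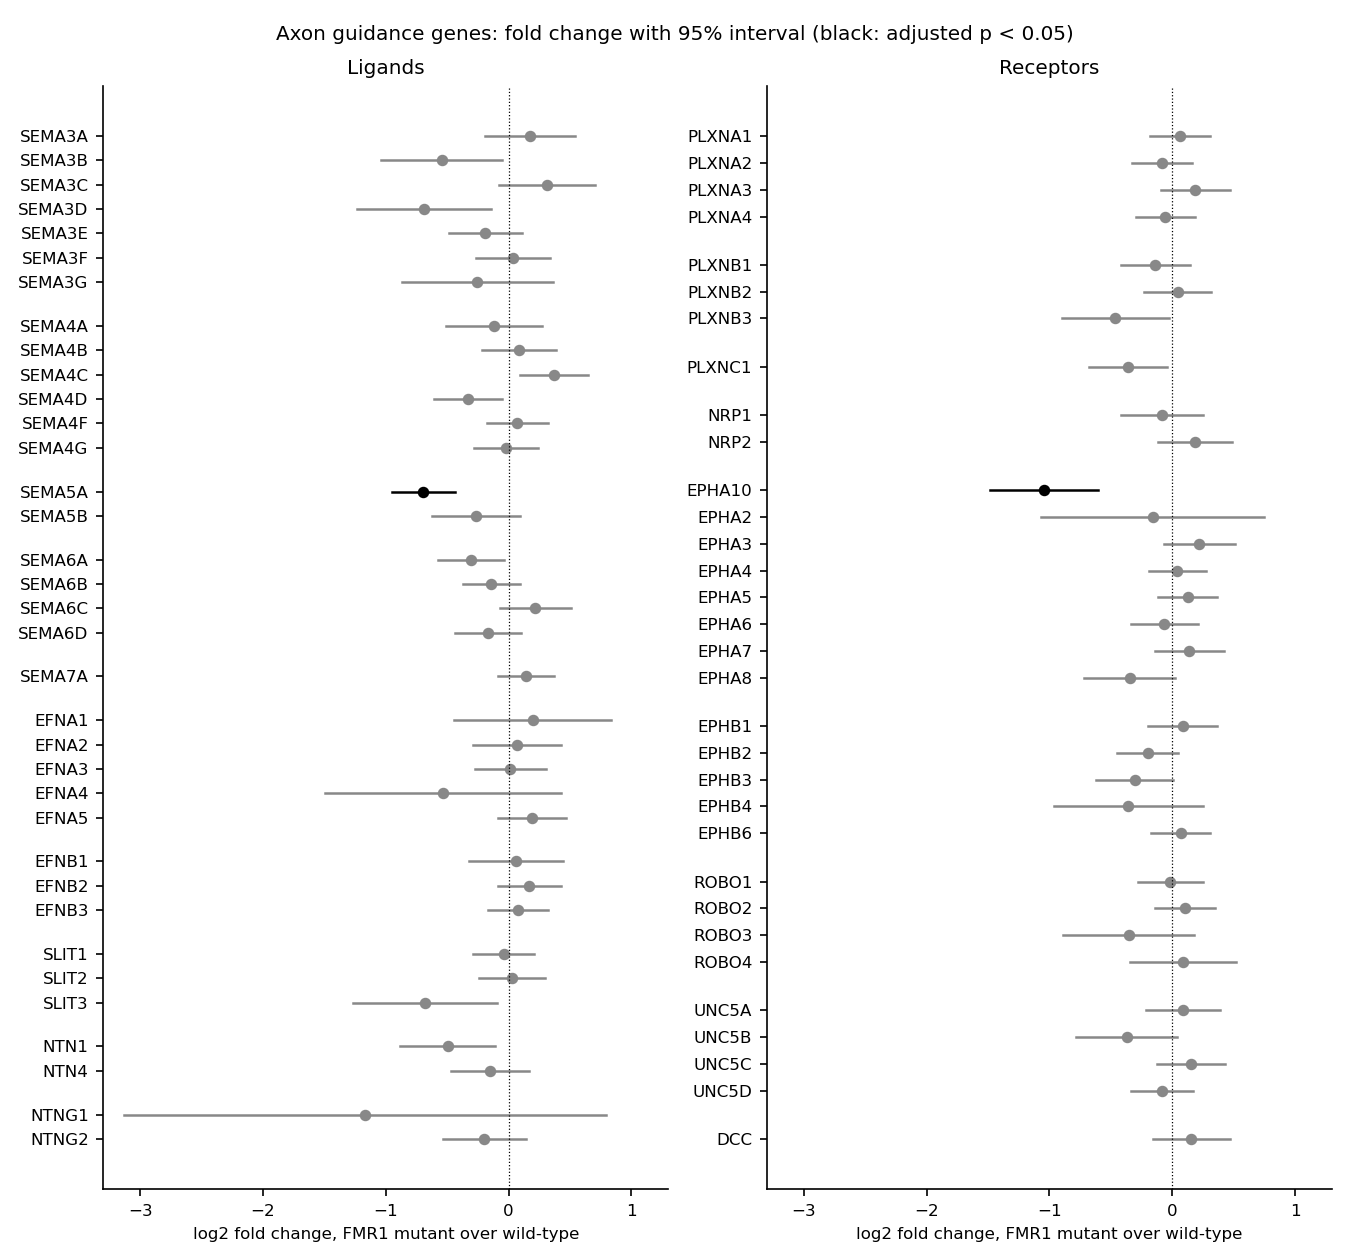
Fold change of each of the 67 tested axon guidance genes, ligands on the left and receptors on the right, grouped by family. Points are log2 fold changes of FMR1 mutant over wild-type libraries (n = 2 each), bars are 95% intervals, and black marks the 2 genes past an adjusted p of 0.05, SEMA5A and EPHA10.

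The semaphorin SEMA5A fell in the mutant libraries. It is a transmembrane protein with thrombospondin repeats that can attract or repel axons and that is known from neurons and from cells of the oligodendrocyte lineage. Its level, in CPM (counts relative to the scaled library size), was 156 and 127 in the wild-type libraries against 85.4 and 89.9 in the mutant ones. Both mutant libraries thus lay below both wild-type libraries, at 60.3% and 63.4% of the wild-type mean. Group means were 142 ± 20.4 and 87.6 ± 3.19 CPM (SD, n = 2 each), a log2 fold change of -0.69 (SE 0.13, adjusted p = 9.68e-04). With any 1 library left out SEMA5A also passed, with log2 fold changes from -0.83 to -0.54. The value was -0.54 without wild-type replicate 1, the library that stood apart in thalamic markers, and -0.83 without wild-type replicate 2. Each fit of this kind, here and for the genes that follow, sets a single library against a pair. It assumes that the lone library varies like the other group, so its p rests on the spread within that pair, moderated over all genes. Markers of mature oligodendrocytes moved the same way, with 12 of 13 fallen, against 1.57% of all genes tested. Their summed level was 3619 to 3704 CPM in wild-type and 1364 to 1415 CPM in mutant libraries, with none at 0. Sums of the oligodendrocyte precursor, astrocyte and microglial markers were also lower, and that of newborn neuron markers was higher, as given further on. The part of these cell types in the SEMA5A difference was not tested. In bulk tissue such as this, fewer cells of a type and less RNA per cell cannot be told apart.

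SEMA5B, the other class 5 semaphorin, did not pass, and its wild-type libraries disagreed. It was 32.7 and 51.5 CPM in wild-type and 34.3 and 35.7 CPM in mutant libraries, so that both mutant libraries lay between the wild-type ones. The log2 fold change of -0.27 (SE 0.17, adjusted p = 0.561) was 0.10 without wild-type replicate 2 and -0.56 without wild-type replicate 1.

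None of the 7 class 3 semaphorins, secreted repellents that also guide migrating cells, passed. SEMA3D and SEMA3B were lower at an unadjusted p under 0.05 (class 3 median -0.19). SEMA3D, a cue for axons and vessels, was 12.1 and 7.41 CPM in wild-type and 4.96 and 7.12 CPM in mutant libraries (log2 fold change -0.69, SE 0.27, adjusted p = 0.206). Its groups did not overlap, but wild-type replicate 2 lay close to FMR1 mutant replicate 2, and the log2 fold change was -0.29 without wild-type replicate 1. Without wild-type replicate 2, SEMA3D passed (log2 fold change -0.99, adjusted p = 0.0170). SEMA3B was 9.50 and 8.96 CPM in wild-type and 6.26 and 6.38 CPM in mutant libraries (-0.55, SE 0.24, adjusted p = 0.306), with tight replicates but only 82 to 126 counts a library. SEMA3E, a ligand of PLXND1 known from developing vessels and axons, overlapped between groups (49.3, 42.2, 35.2 and 44.9 CPM, wild-type libraries first; -0.19, SE 0.15). The other 4 lay between -0.25 (SEMA3G) and 0.31 (SEMA3C), with SEMA3A, the prototype collapsin, at 0.17 and SEMA3F at 0.04.

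Class 4 semaphorins, transmembrane ligands of the B plexins, were split. SEMA4C, which signals through PLXNB2, was 41.3 CPM in both wild-type libraries, against 51.5 and 55.5 CPM in the mutants. It is the 1 member with a higher value at an unadjusted p under 0.05, yet it did not pass over all genes (log2 fold change 0.37, SE 0.14, 95% interval 0.10 to 0.65, adjusted p = 0.172). With any 1 library left out it stayed between 0.32 and 0.43 and did not pass. SEMA4D, a PLXNB1 ligand that oligodendrocytes carry, was 53.2 and 60.7 CPM in wild-type and 45.7 and 44.7 CPM in mutant libraries, without overlap (-0.33, SE 0.14, adjusted p = 0.248). SEMA4F was 110 and 131 CPM in wild-type and 121 and 132 CPM in mutant libraries, and its groups overlapped (0.07, SE 0.12). SEMA4A (-0.12), SEMA4B (0.08) and SEMA4G (-0.02) also had log2 fold changes near 0.

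Among the class 6 semaphorins, transmembrane ligands of the A plexins, none passed, and 3 of 4 had lower values without overlap between groups, a state found in 21.8% of all genes tested. SEMA6A, which acts in neuronal migration and in oligodendrocyte maturation, was 85.3 and 69.9 CPM in wild-type and 61.4 and 64.5 CPM in mutant libraries (log2 fold change -0.30, SE 0.13, adjusted p = 0.291). The gap between its wild-type libraries was larger than that between wild-type replicate 2 and the mutant libraries, and the value was -0.15 without wild-type replicate 1. SEMA6B, a ligand of PLXNA4, was 347 and 364 CPM in wild-type and 336 and 309 CPM in mutant libraries (-0.14, SE 0.11), and SEMA6D stood at -0.17. SEMA6C was the exception, at 36.0 and 43.2 CPM in wild-type and 46.8 and 45.3 CPM in mutant libraries (0.22, SE 0.14, adjusted p = 0.550). SEMA7A, which is anchored to the membrane by a GPI lipid and binds integrins and PLXNC1, was 446 and 394 CPM in wild-type and 477 and 451 CPM in mutant libraries. Its mutant libraries lay just above the wild-type ones (0.14, SE 0.11, adjusted p = 0.643).

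**Figure D2:**
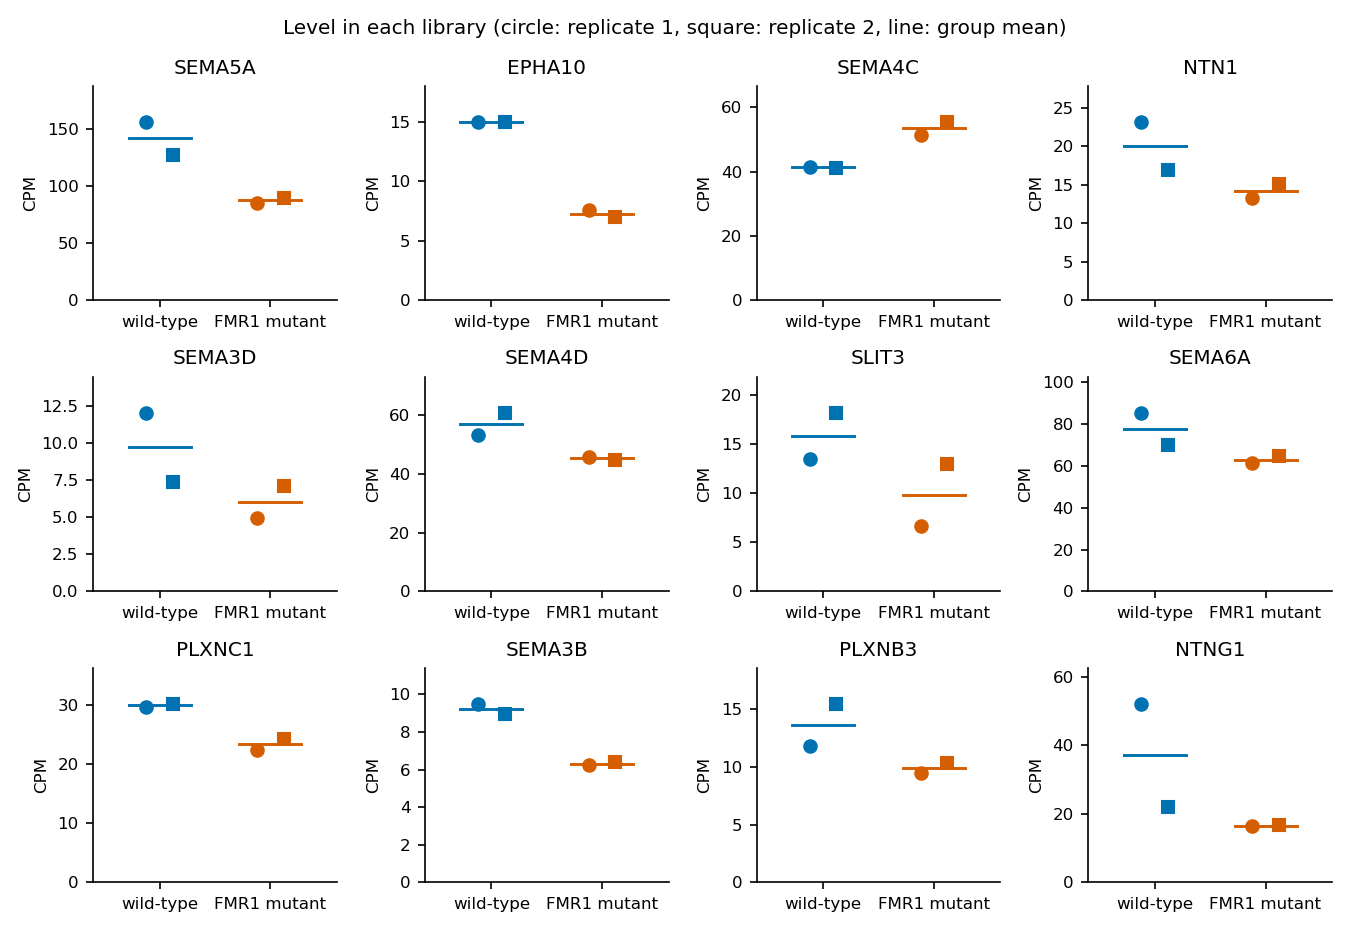
Level in CPM of the 11 axon guidance genes at an unadjusted p under 0.05, ordered by that p, and of NTNG1, in each library. Circles are replicate 1, squares replicate 2 and lines the group means (n = 2). Groups do not overlap in these 12, which were picked by p or fold change (43.1% of all genes tested do not overlap); for NTNG1 wild-type replicate 1 lies far above wild-type replicate 2.

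Plexins, the signalling receptors for semaphorins, gave no call among 8 genes, and neither did the 2 neuropilins. PLXND1 was not analysed here. PLXNC1, the SEMA7A receptor, was 29.6 and 30.2 CPM in wild-type and 22.4 and 24.3 CPM in mutant libraries. This was a tight and separate pair in each group, but the log2 fold change of -0.36 (SE 0.16, adjusted p = 0.293) did not pass. PLXNB3, which oligodendrocytes express, was 11.8 and 15.5 CPM in wild-type and 9.47 and 10.3 CPM in mutant libraries (-0.46, SE 0.21, adjusted p = 0.325). Neither passed with any 1 library left out. The other B plexins moved little, with PLXNB1 at -0.14 (SE 0.14) and PLXNB2, the SEMA4C receptor, at 0.05 (SE 0.13).

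The A plexins, which pair with neuropilins for class 3 and bind class 6 semaphorins directly, stayed within 0.19 of 0 on the log2 scale. PLXNA1 was 226 and 236 CPM in wild-type and 218 and 265 CPM in mutant libraries, PLXNA2 was 156 and 148 against 134 and 152 CPM, and PLXNA3 was 41.9 and 40.4 against 43.5 and 50.3 CPM. Only in PLXNA3 of the 4 did the groups not overlap (0.19, SE 0.14, adjusted p = 0.617), and PLXNA4 stood at -0.06. NRP1, the SEMA3A co-receptor, overlapped between groups (24.5, 28.5, 22.2 and 27.8 CPM, wild-type first; -0.08, SE 0.16). NRP2, the SEMA3F co-receptor, was 34.2 and 30.4 CPM in wild-type and 37.0 and 36.6 CPM in mutant libraries (0.19, SE 0.15, adjusted p = 0.644).

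Among Eph receptors, 1 of 13 tested fell, EPHA10, a member of the family whose kinase domain is thought to be inactive. The wild-type libraries held 199 and 184 counts of it, and the mutant libraries 99 and 94. In CPM this was 15.0 in both wild-type libraries against 7.56 and 6.97 in the mutants, which lay at 50.4% and 46.5% of the wild-type mean. Group means were 15.0 ± 0.0218 and 7.27 ± 0.412 CPM (SD, n = 2 each), and the wild-type SD is smaller than the counting error of a single library. The log2 fold change was -1.04 (SE 0.21, 95% interval -1.48 to -0.61, adjusted p = 0.00399), with the spread moderated over all genes. With 1 library left out, the log2 fold change stayed between -1.10 and -0.99. The call was lost without FMR1 mutant replicate 2, where the log2 fold change was -0.99. The only gene that overlaps EPHA10 in the RefSeq table of assembly calJac240 is the snoRNA LOC118143531, with 0 counts in each library. Since the counting tool's strand setting is not given, reads from outside that annotation could still be counted with EPHA10, and this was not tested.

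No other EPHA receptor passed, and none was tested against EPHA10. EPHA8, the nearest by p, was 21.1 and 18.8 CPM in wild-type and 14.2 and 17.2 CPM in mutant libraries, without overlap (log2 fold change -0.35, SE 0.18, adjusted p = 0.415). EPHA5, a receptor of cortical and hippocampal neurons, was 218 and 211 CPM in wild-type and 215 and 253 CPM in mutant libraries, with overlap (0.12, SE 0.12). EPHA4, which binds both ephrin classes and guides corticospinal axons, was almost level at 219, 218, 215 and 234 CPM (0.04, SE 0.11). EPHA3 (0.22), EPHA7 (0.14), EPHA6 (-0.06) and EPHA2 (-0.16, 95% interval -1.07 to 0.75) did not pass either.

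EPHB receptors gave no call among 5. EPHB3, which acts with EPHB2 in commissural axons, was 34.1 and 30.9 CPM in wild-type and 25.1 and 27.5 CPM in mutant libraries (log2 fold change -0.31, SE 0.15, adjusted p = 0.389). EPHB2, a receptor of dendritic spines and of axons crossing the midline, was 174 and 170 CPM in wild-type and 133 and 166 CPM in mutant libraries (-0.20, SE 0.12). Its difference was mostly that of FMR1 mutant replicate 1, and the value was -0.05 without it. EPHB6, a receptor without kinase activity, was 265 and 224 CPM in wild-type and 248 and 264 CPM in mutant libraries (0.07, SE 0.12), while EPHB1 stood at 0.08 and EPHB4, known from veins, at -0.36 (SE 0.30).

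Ephrins, the ligands of these receptors, gave no call among 8. Of them, 7 had a log2 fold change above 0, but the values were small (median 0.07) and none was past an unadjusted p of 0.05. EFNA5, a repellent that sets topographic maps, was 46.2 and 43.8 CPM in wild-type and 49.2 and 53.5 CPM in mutant libraries (0.19, SE 0.14, adjusted p = 0.601). EFNB2, an ephrin of vessels and neurons, was 68.1 and 71.0 CPM in wild-type and 78.5 and 77.8 CPM in mutant libraries (0.17, SE 0.13, adjusted p = 0.622). In both genes the mutant libraries lay above the wild-type ones. EFNA3 (43.2, 54.3, 51.8 and 46.7 CPM, wild-type first; 0.01) and EFNB3, a midline barrier (122, 135, 140 and 131 CPM; 0.08), overlapped between groups. EFNA1 (0.19), EFNA2 (0.07) and EFNB1 (0.06) did not pass. EFNA4, the exception in sign, was counted only 16 to 35 times a library (-0.54, SE 0.47).

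SLITs and ROBOs gave no call among 7 genes, of which SLIT3 had the smallest p. SLIT3, the SLIT that also acts outside the nervous system, was 13.4 and 18.2 CPM in wild-type and 6.64 and 12.98 CPM in mutant libraries (log2 fold change -0.68, SE 0.27, adjusted p = 0.279). Its mutant replicates differed more than wild-type replicate 1 and FMR1 mutant replicate 2 did. The call turned on which library was used: SLIT3 passed without wild-type replicate 1 (-0.88, adjusted p = 0.0165) and without FMR1 mutant replicate 2 (-1.24, adjusted p = 0.0270), but stood at -0.28 without FMR1 mutant replicate 1. SLIT1 was 215 and 275 CPM in wild-type and 229 and 248 CPM in mutant libraries, which lay between the wild-type ones (-0.04, SE 0.12). SLIT2, the repellent of midline and forebrain tracts, stood at 0.02 (SE 0.13).

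The main SLIT receptors overlapped between groups as well. ROBO2 was 240 and 214 CPM in wild-type and 221 and 266 CPM in mutant libraries (log2 fold change 0.10, SE 0.12), and ROBO1 was 86.9 and 75.1 CPM in wild-type and 75.0 and 85.3 CPM in mutant libraries (-0.02, SE 0.13). Their 95% intervals, -0.14 to 0.35 and -0.28 to 0.25, lay within 1.5-fold. ROBO3, needed for commissural axons to cross, was 6.56 and 8.39 CPM in wild-type and 5.57 and 6.08 CPM in mutant libraries (-0.36, SE 0.26, adjusted p = 0.614). ROBO4, a receptor of endothelial cells, stood at 0.09 (SE 0.21).

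NTNG1, a GPI-anchored netrin-G protein of thalamocortical axons that binds the synaptic adhesion protein LRRC4C, had the largest log2 fold change in size of the 67 members tested, and no call. It was 52.1 and 22.1 CPM in wild-type and 16.4 and 16.7 CPM in mutant libraries. Wild-type replicate 1 was far above the other 3 libraries, so the log2 fold change of -1.17 had a 95% interval of -3.13 to 0.79 (SE 0.56, adjusted p = 0.563). Without wild-type replicate 1 it was -0.41, and without wild-type replicate 2 it was -1.65. The latter fit sets the high wild-type library alone against 2 nearly equal mutant libraries. It passed, but it has no measure of the gap between the wild-type libraries. With all libraries, NTNG1 was called by limma-voom (-1.05, adjusted p = 0.0240) and by edgeR without robust moderation (-1.17, adjusted p = 0.00560). Wild-type replicate 1 also had the highest counts of the thalamic markers TCF7L2, LHX9 (115, against 8 to 16) and GBX2 (62, against 5 to 10). The thalamus and midbrain list summed to 350 and 197 CPM in wild-type and 227 and 230 CPM in mutant libraries. None of its 6 tested members of 9 passed by edgeR (1 higher and 1 lower at an unadjusted p under 0.05). The part of thalamic tissue in the NTNG1 values was not tested.

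NTNG2, the netrin-G protein that binds LRRC4, went the other way between the wild-type libraries. It was 80.4 and 122 CPM in wild-type and 89.1 and 87.5 CPM in mutant libraries (log2 fold change -0.20, SE 0.16, adjusted p = 0.660). The mutant libraries lay between the wild-type ones.

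Netrins and their receptors gave no call among 7 tested genes. NTN1, the attractant of commissural axons, was 23.2 and 16.9 CPM in wild-type and 13.3 and 15.1 CPM in mutant libraries (log2 fold change -0.50, SE 0.19, adjusted p = 0.198). The groups did not overlap, with wild-type replicate 1 highest. NTN1 passed without wild-type replicate 2 (-0.70, adjusted p = 0.0397) and stood at -0.25 without wild-type replicate 1. NTN4, a laminin-binding netrin of basement membranes, was 57.8 and 39.2 CPM in wild-type and 43.4 and 43.9 CPM in mutant libraries, with wild-type replicate 1 again highest (-0.15, SE 0.16). DCC, the netrin receptor, was 34.1 and 33.8 CPM in wild-type and 32.1 and 43.5 CPM in mutant libraries, so that only FMR1 mutant replicate 2 was higher (0.15, SE 0.15, adjusted p = 0.733).

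Of the UNC5 receptors, UNC5B, which is known from vessels, was 13.1 and 16.2 CPM in wild-type and 10.7 and 11.9 CPM in mutant libraries (log2 fold change -0.37, SE 0.20, adjusted p = 0.440). UNC5C was 50.6 and 44.0 CPM in wild-type and 54.1 and 51.0 CPM in mutant libraries (0.15, SE 0.14, adjusted p = 0.706). UNC5D, a receptor of migrating upper-layer neurons that also binds FLRT proteins, was 101 and 99.6 CPM in wild-type and 87.7 and 102 CPM in mutant libraries (-0.08, SE 0.12). UNC5A stood at 0.09.

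A total of 3 members had too few counts to be tested. EPHA1 was counted 9 and 6 times in wild-type and 4 and 2 times in mutant libraries, without overlap. NTN3 was counted 11, 5, 8 and 6 times and NTN5 1, 0, 0 and 0 times, wild-type libraries first. These counts are too low to test a difference.

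Members were also summed by family. The class 5 semaphorins, through SEMA5A, summed to 189 and 179 CPM in wild-type and 120 and 126 CPM in mutant libraries. Class 6 semaphorins summed to 536 and 538 CPM in wild-type and 498 and 480 CPM in mutant libraries. The netrin-G sum was 133 and 144 CPM in wild-type and 106 and 104 CPM in mutant libraries, although its 2 genes had opposite gaps between the wild-type libraries. Ephrin-A ligands (119 and 122 against 129 and 128 CPM) and ephrin-B ligands (204 and 223 against 234 and 226 CPM) summed slightly higher in the mutant libraries. Sums of the class 3 and class 4 semaphorins, A and B plexins, EPHA, EPHB, ROBO and UNC5 receptors and of the SLITs overlapped between groups. All 70 members together summed to 5091 and 5058 CPM in wild-type and 4825 and 5165 CPM in mutant libraries, which also overlapped. By form, the 12 tested secreted ligands had a median log2 fold change of -0.17, the 15 transmembrane ligands -0.02, the 8 GPI-anchored ligands 0.04 and the 32 tested receptors -0.04.

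**Figure D3:**
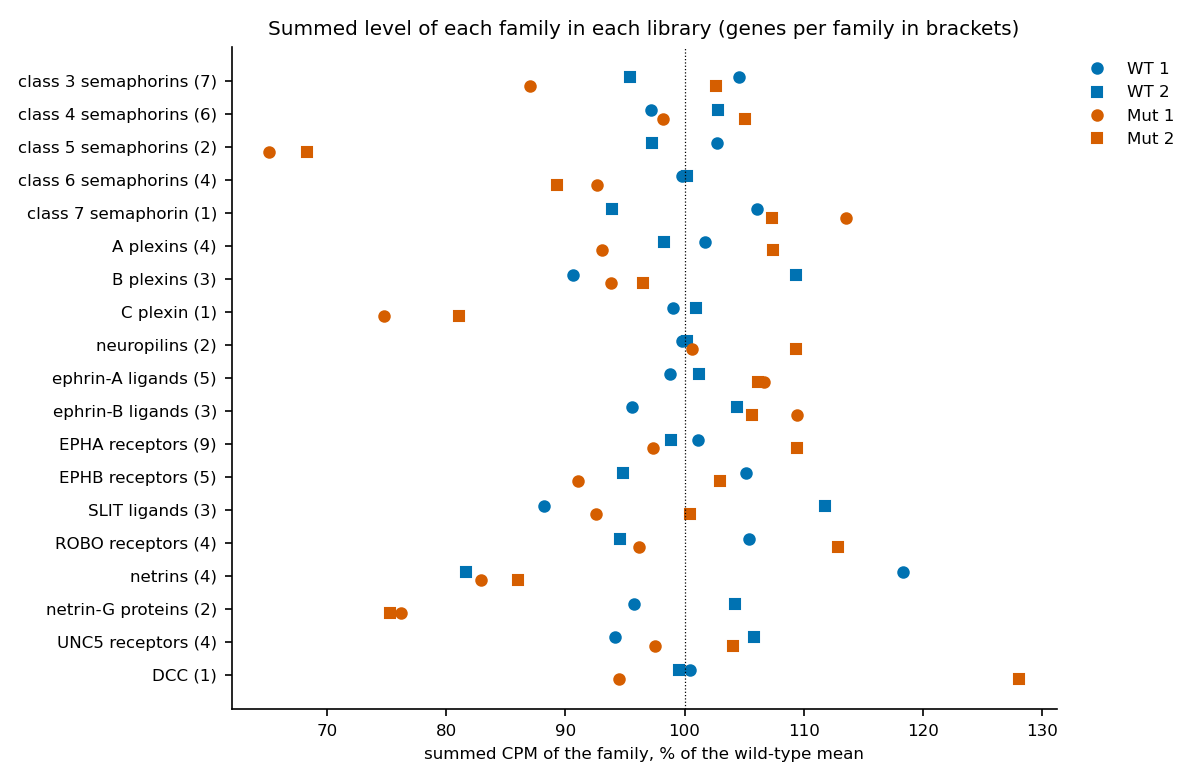
Summed CPM of each family in each library as a percentage of that family's wild-type mean, with the number of genes in brackets. Blue is wild-type and orange FMR1 mutant, circles are replicate 1 and squares replicate 2; the mutant libraries of the class 5 semaphorins, at 120 and 126 CPM against 189 and 179 CPM, lie well to the left, and many other families overlap.

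Markers of several cell types differed between the groups. Over all genes tested, 1.57% fell and 0.661% rose. Beside the oligodendrocyte markers given with SEMA5A, 2 of 8 oligodendrocyte precursor markers fell and the list summed to 79.7% and 81.7% of the wild-type mean in FMR1 mutant replicates 1 and 2. The fallen genes were SOX10, the lineage factor of oligodendrocytes (log2 fold change -0.56, adjusted p = 0.0161), and GPR17, a receptor of committed precursors (-0.50, adjusted p = 0.0162). Of 9 astrocyte markers 1 fell, the glutamate transporter SLC1A2 (-0.61, adjusted p = 9.68e-04), and the list summed to 73.5% and 79.9%. A large part of that sum was SLC1A2 (1918 and 1896 against 1178 and 1326 CPM) and GFAP (1239 and 1037 against 803 and 931 CPM). GFAP did not pass. All 9 had lower values, with a median log2 fold change of -0.23 and SOX9 nearest 0 at -0.07. Microglial markers, 3 of 10 fallen, summed to 79.6% and 52.3%. Markers of newborn neurons were higher, with 3 of 9 risen (CD24, DCX and NEUROD6) and a sum of 125.3% and 125.6%. NEUROD6 is also in the cerebral cortex list, which summed to 110.9% and 116.4%. Of 8 progenitor markers, VIM rose (0.44, adjusted p = 0.0481) and MKI67 fell (-0.99, adjusted p = 0.0288). The progenitor list summed to 117.4% and 101.8%, with wild-type replicates at 97.9% and 102.1%. Of 10 mature neuronal markers, GAD2 and NEFL fell and 8 had lower values (median log2 fold change -0.09). In 5 of the 10 (50%) both mutant libraries lay below both wild-type ones, against 21.8% of all genes tested. In 1 (10%) both lay above, against 21.4% of all genes. The sum of the 10 markers was 103.7% and 98.8%, of which STMN2, with higher values in the mutant libraries (2560.0 and 2232 against 3059 and 2902 CPM, 0.31), made up a large part. Endothelial and pericyte markers summed to 89.6% and 93.3%, with wild-type replicates at 95.8% and 104.2%. Meningeal ones summed to 81.0% and 83.1%, with wild-type replicates at 87.4% and 112.6%. A large part of the meningeal sum was PDGFRA, which is also in the precursor list (139 and 130 against 87.9 and 110 CPM). Of the 8 meningeal markers, 5 had lower and 3 higher values. No member of either list passed by edgeR (2 lower in each list and 1 higher among the meningeal ones at an unadjusted p under 0.05). The part of these cell types in the guidance gene values was not tested.

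**Figure D4:**
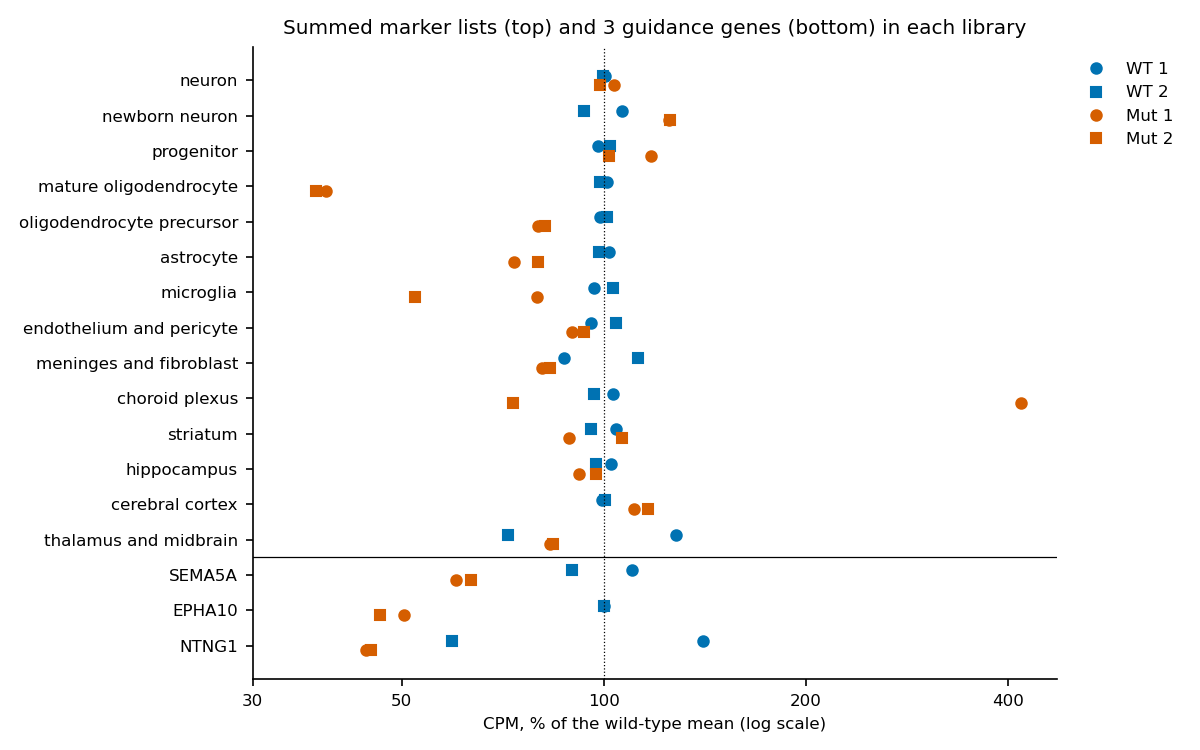
Summed CPM of each marker list, and CPM of SEMA5A, EPHA10 and NTNG1, in each library as a percentage of the wild-type mean, on a log axis. Mutant libraries (orange) lie at 38.7% and 37.2% for mature oligodendrocytes and at 60.3% and 63.4% for SEMA5A; wild-type replicate 1 (blue circle) is highest for the thalamus and midbrain list and for NTNG1.

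The wider pathway was described with 72 further genes, all tested. Of 25 other ligands and co-receptors, 2 fell and 0 rose, against 1.57% lower and 0.661% higher over all genes tested. At an unadjusted p under 0.05, 3 were lower and 1 was higher, against 7.75% and 5.64% of all genes tested. FLRT1, a cell surface protein of the family that binds UNC5 receptors and latrophilins, was 50.8 and 56.9 CPM in wild-type and 29.2 and 36.0 CPM in mutant libraries (log2 fold change -0.72, SE 0.14, adjusted p = 0.00293). CNTN2, an adhesion protein of early axons that is also made by oligodendrocytes at the juxtaparanode, was 75.4 and 78.6 CPM in wild-type and 50.4 and 55.7 CPM in mutant libraries (-0.54, SE 0.13, adjusted p = 0.0173). In both genes the mutant libraries lay clearly below the wild-type ones. By DESeq2 the 2 genes also passed. Without FMR1 mutant replicate 1, FLRT1 stood at -0.58 (adjusted p = 0.0977) and CNTN2 at -0.47 (adjusted p = 0.190), so that neither passed and the wider list held 0 calls. Without wild-type replicate 2, CNTN2 stood at -0.51 (adjusted p = 0.0656). NEO1, the DCC relative that binds RGM proteins, came next at 0.30 (SE 0.12, adjusted p = 0.217).

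Of 47 intracellular effectors, none passed by edgeR or DESeq2, and the median was 0.02. At an unadjusted p under 0.05, 2 were higher and 3 lower, against 5.64% and 7.75% of all genes tested. DPYSL3, a collapsin response mediator that carries semaphorin signals to microtubules, was 1521 and 1200 CPM in wild-type and 1704 and 1894 CPM in mutant libraries (log2 fold change 0.40, SE 0.12, adjusted p = 0.0612). It passed by limma-voom (adjusted p = 0.0449) and without wild-type replicate 1 (0.58, adjusted p = 0.0144), and stood at 0.24 without wild-type replicate 2. DOCK1, a Rac activator downstream of DCC, was 23.1 and 20.2 CPM in wild-type and 12.98 and 15.4 CPM in mutant libraries (-0.61, SE 0.18, adjusted p = 0.0681), and it passed without wild-type replicate 2 (-0.70, adjusted p = 0.0403).

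**Figure D5:**
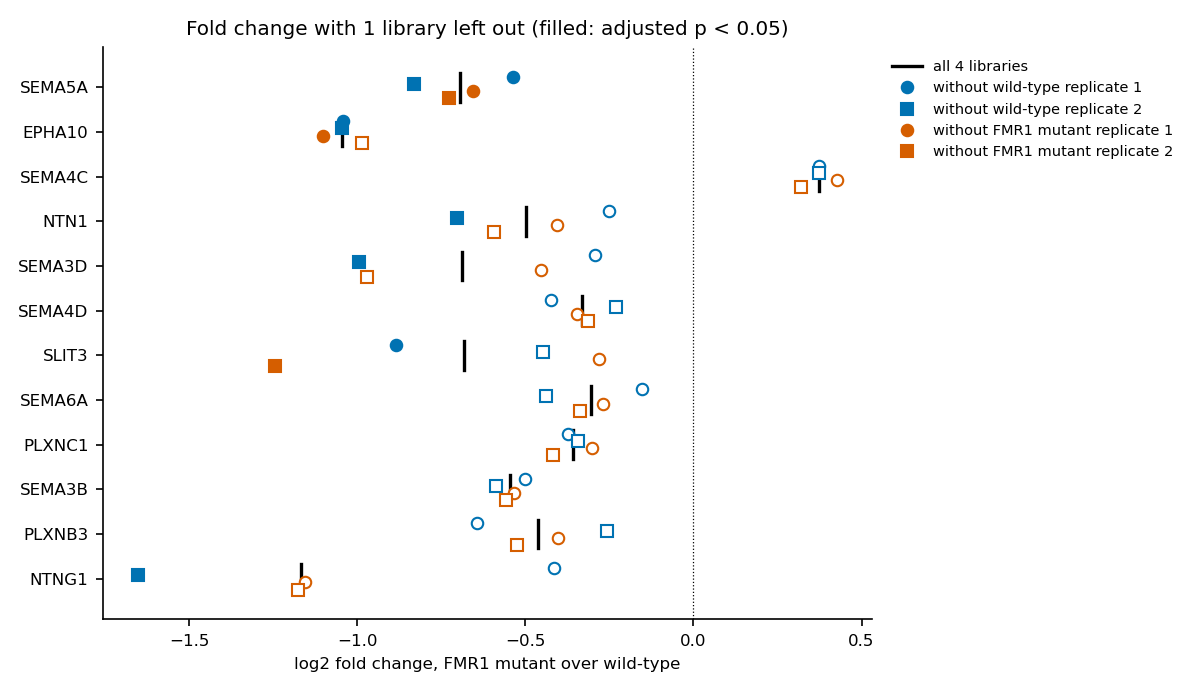
Log2 fold change of the 11 axon guidance genes at an unadjusted p under 0.05, and of NTNG1, with all 4 libraries (black line) and with 1 left out (blue: a wild-type library, orange: a mutant library). Filled symbols have an adjusted p under 0.05; SEMA5A is filled in all 4 fits and EPHA10 in 3, while NTNG1, NTN1, SEMA3D and SLIT3 shift with single libraries.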

How the data were processed

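The authors deposited 1 table of raw counts, whole numbers for 35205 genes in 4 libraries. TRIzol extraction, poly(A) selection and a directional library kit were used, per the labels' protocols. Trimmomatic 0.38 and STAR 2.7.10a are named, per the submitters' processing notes. Counting tool, strand setting, genome build and annotation were not given in the sources used here. Columns were matched to samples by the library names in the labels. Members were taken by symbol, and all 70 matched the RefSeq gene table of assembly calJac240, which was used for names and neighbours.

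The test was edgeR's (version 4.0.16, R 4.3.3): filterByExpr at a minimum count of 10 (16956 genes kept), TMM scaling, the robust quasi-likelihood fit, and p adjusted by Benjamini-Hochberg across every gene kept, called at 0.05. SE is the size of the log2 fold change divided by the square root of F. CPM is scaled by TMM. Transcript lengths were not used, so levels are not compared between genes. Replicates differed by more than sampling noise (chi-square per degree of freedom 7.28 in wild-type, 6.90 in mutant libraries). P-values measure the spread between these libraries, which may be technical, and intervals rest on 2 libraries a group. Alternatives were RLE and upper quartile scaling, DESeq2 1.42.0 on all rows, limma-voom (limma 3.58.1), robust = FALSE, other filters, a replicate block, an adjusted p of 0.1, and each library left out with the same genes kept.

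The members and the marker and pathway lists were chosen with earlier results of these data known. Genes with values were named by a rule: members past the threshold, then in each family the 2 with the smallest p and the one with the most counts. Other members are given by their log2 fold changes, and EPHA4, SEMA3A and ROBO1 were described further outside that rule.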

Additional observations from a re-analysis of the deposited data

How the results depend on the processing

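Scaling did not change which members were called: 2 fell and 0 rose with TMM, RLE and upper quartile scaling, with 31 values above and 36 below 0 in each. The number of changed members was 4 without a low-count filter (NTNG1 and SLIT3 in addition), and 2 to 5 with 1 library left out. The 5, without wild-type replicate 2, were SEMA5A, EPHA10, NTNG1, SEMA3D and NTN1. Without FMR1 mutant replicate 2 the 2 calls were SEMA5A and SLIT3. The wider pathway list gave 4 calls without the filter, 5 at an adjusted p of 0.1 and 0 to 4 with 1 library left out. Over all genes, 244 changed by DESeq2, 633 without the filter, 624 at an adjusted p of 0.1 and 163 to 562 with 1 library left out. The members' median of -0.04 was -0.0323 with upper quartile scaling, -0.0285 by limma-voom, -0.0302 with the replicate block, -0.0571 by DESeq2, -0.0609 without the filter, and between -0.0799 and 0.0173 with 1 library left out. Of the 67 members, 36 kept their sign in the 4 fits that left out 1 library and 31 did not. The cause of these shifts was not tested. With the replicate number as a block, 493 genes and 3 members passed, SLIT3 in addition (log2 fold change -0.73, adjusted p = 0.0410). The labels do not say that the numbers pair the libraries, and deviations of same-numbered libraries correlated at 0.03 across genes. Depth limits EFNA4, EPHA2, EPHA1, NTN3 and NTN5, all under 40 counts a library.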

Other observations

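Some members are neighbours in the genome, with at most 5 protein-coding genes between them in the RefSeq annotation of assembly calJac240. SEMA3D, SEMA3A and SEMA3E lie side by side, with log2 fold changes of -0.69, 0.17 and -0.19, and SEMA3C, 4 coding genes further, stood at 0.31. ROBO3 (-0.36) lies next to ROBO4 (0.09), and ROBO1 (-0.02) next to ROBO2 (0.10). EFNA4 (-0.54) lies next to EFNA3 (0.01), with EFNA1 (0.19) 1 coding gene further. SEMA3F (0.04) and SEMA3B (-0.55) have 3 coding genes between them, as do EPHA8 (-0.35) and EPHB2 (-0.20), and EPHA6 (-0.06) and EPHA3 (0.22) have 5. None of these genes passed the edgeR test, so the pairs are given as values only.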
